A study of Trichoderma reesei with 12 samples.

Results

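In the deposited count table, each gene of Trichoderma reesei has a systematic identifier: Tr, then one of the letters A to G, a 4-digit number and a W or C. Within each letter the numbers run without a gap from 1, and the 7 series hold 2149 rows for A, 1977 for B, 1580 for C, 1443 for D, 1307 for E, 1211 for F and 1209 for G. The rows described here are the first 50 and the last 50 of each letter, ordered by number, which gives 14 ends of 50 rows and 700 terminal rows among 10876 lettered rows. They were set against the remaining 10176 lettered rows. A row's rank is its distance from the nearer end of its series, so that rank 1 is the outermost row. The rule uses identifiers and no expression value, though it was chosen with earlier results of these data known.

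Trichoderma reesei is a filamentous fungus that secretes large amounts of cellulases, and RNA sequencing was done on its mycelium after 96 h at 28 °C on cellulose in minimal medium. The 12 libraries are 4 of the sor4 deletion strain in light, 2 of the ku80 strain in light, 4 of sor4 in darkness and 2 of ku80 in darkness. Both strains have the QM6a background and are deleted for ku80, a gene of non-homologous end joining whose loss eases gene targeting, so the sor4 strain carries both deletions and ku80 is its parent. No label gives a number of independent transformants, and no label says whether replicates were separate cultures, so the spread behind each p-value is that between libraries and may be technical.

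The treatment protocol text speaks of darkness for every library, while the title and the treatment label name light for 6 of them, and the title and treatment label were followed. Totals ran from 7844524 to 12027855 counts per library. Among the light libraries, ku80 replicate 2 stood apart: it had the lowest total, and 1661 remaining rows had no count in it, against 1243 to 1363 in the other light libraries. Differences between replicates were not confined to that pair. The mean chi-square per row was 60.68 between the ku80 light libraries and 78.81 between replicates 1 and 3 of sor4 darkness.

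The same pattern of letter, number and strand sign is used for systematic gene names in budding yeast, where the letter stands for a chromosome and the number for the order along it. The sources used here do not state this for the present identifiers, so an end means the end of a numbered series. In many fungi, genes close to telomeres are background examples of position-dependent silencing: chromatin there can keep genes off, and such regions often hold species-specific genes and gene clusters for secondary metabolism. In Trichoderma reesei, light is sensed by photoreceptor proteins of the blue-light class and changes the expression of many metabolic genes. The RefSeq table lists 9116 genes, and 0 of its identifiers matched, so no gene name, function or sequence can be given for a row, and rows are named by identifier. In bulk mycelium, fewer cells of a type and less RNA per cell cannot be told apart.

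The outermost rows were often silent, which means here that a row had 0 counts in all 12 libraries. Of the 700 terminal rows, 50 were silent (7.14%, exact 95% binomial interval 5.35 to 9.31%), against 335 of the 10176 remaining rows (3.29%, interval 2.95 to 3.66%). Nearly all of the excess sat in the outermost 10 rows: 34 of the 140 rows at ranks 1 to 10 were silent (24.3%, interval 17.4 to 32.2%), against 16 of the 560 rows at ranks 11 to 50 (2.86%, interval 1.64 to 4.598%). The intervals cover counting error only. A count of 0 over all 12 libraries allows a level of up to 0.0251 CPM (counts scaled to library size), which is 3 counts of the summed total, so silence was at this depth.

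The silent rows were unevenly spread over the ends. The start of F held 12, the start of G 7, the start of C 5, and the start of D and the end of E 4 each, while the start of E held 0. At the start of F the 11 rows from TrF0001C to TrF0011W formed an unbroken silent run, with lengths from 99 to 7117 nucleotides, and TrF0012W at rank 12 was the first row with a count. The single outermost row was silent at 8 of the 14 ends, namely TrA2149C, TrB1977C, TrD0001C, TrD1443C, TrE1307C, TrF0001C, TrF1211C and TrG0001W, with lengths of 99 to 1853 nucleotides. Without the start of F, 24 of 130 rows at ranks 1 to 10 remained silent (18.5%).

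Short rows made up part of this. At ranks 1 to 10 the silent rows had a median length of 350.5 nucleotides, against 1273.5 nucleotides for the other 106 rows, and 15 of the 34 silent rows were at most 300 nucleotides long. Among rows longer than 300 nucleotides, 19 of 124 at ranks 1 to 10 were silent (15.3%), against 203 of 9340 remaining rows (2.17%). The excess at the outermost ranks was therefore present in longer rows too. How reads shared by near-identical rows were counted is not given in the sources used here, so a count of 0 means that no read was assigned to a row, and the part of shared reads in the silent rows was not tested.

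Silence was more common in light than in darkness. In the 6 light libraries together, 117 terminal rows had no count (16.7%), against 58 in the 6 dark libraries (8.29%). The remaining rows moved less, with 6.67% without a count in light and 4.31% in darkness. At ranks 1 to 10 the shares were 42.9% in light and 26.4% in darkness. Counts only in darkness were seen in 67 terminal rows and counts only in light in 8, against 344 and 104 of the remaining rows.

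The levels of the terminal rows were low. A level is given as the mean CPM per kilobase of the deposited length, averaged over the strains with equal weight. The median level of the 700 terminal rows was 1.17 in light and 3.01 in darkness, a ratio of 2.58 for darkness over light, while the remaining rows had medians of 19.7 in light and 20.2 in darkness. The terminal medians include the silent rows, and over the 501 terminal rows with enough counts to be tested they were 4.01 in light and 8.33 in darkness. In single libraries the median level of the terminal rows was 1.11, 1.11, 1.17 and 1.09 CPM per kb in sor4 light, against 2.52, 3.03, 3.08 and 2.98 in sor4 darkness. In ku80 it was 0.943 and 1.31 CPM per kb in light, against 2.56 and 2.6 in darkness. The light and dark libraries did not overlap in either strain.

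The lower level reached well beyond the outermost 50 rows, and the difference between light and darkness faded inwards. The median level at ranks 1 to 10 was 0.026 CPM per kb in light and 0.480 in darkness. At ranks 11 to 25 it was 0.624 in light and 2.09 in darkness, and at ranks 26 to 50 it was 3.48 in light and 5.32 in darkness. Further in, ranks 51 to 100 had 6.33 in light and 9.13 in darkness, and the next ranks up to 200 had 8.35 in light and 11.6 in darkness. From there to rank 400 it was 19.4 in light and 19.7 in darkness, and rows beyond rank 400 had 25.02 in light and 24.7 in darkness, so the medians in light and darkness were close to each other beyond rank 200. The silent share did not follow this slope, since it was 2.86% at ranks 11 to 25 and at ranks 26 to 50, 4.43% at ranks 51 to 100, 5.5% from there to rank 200, 3.18% from there to rank 400 and 2.62% beyond.

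**Figure D1:**
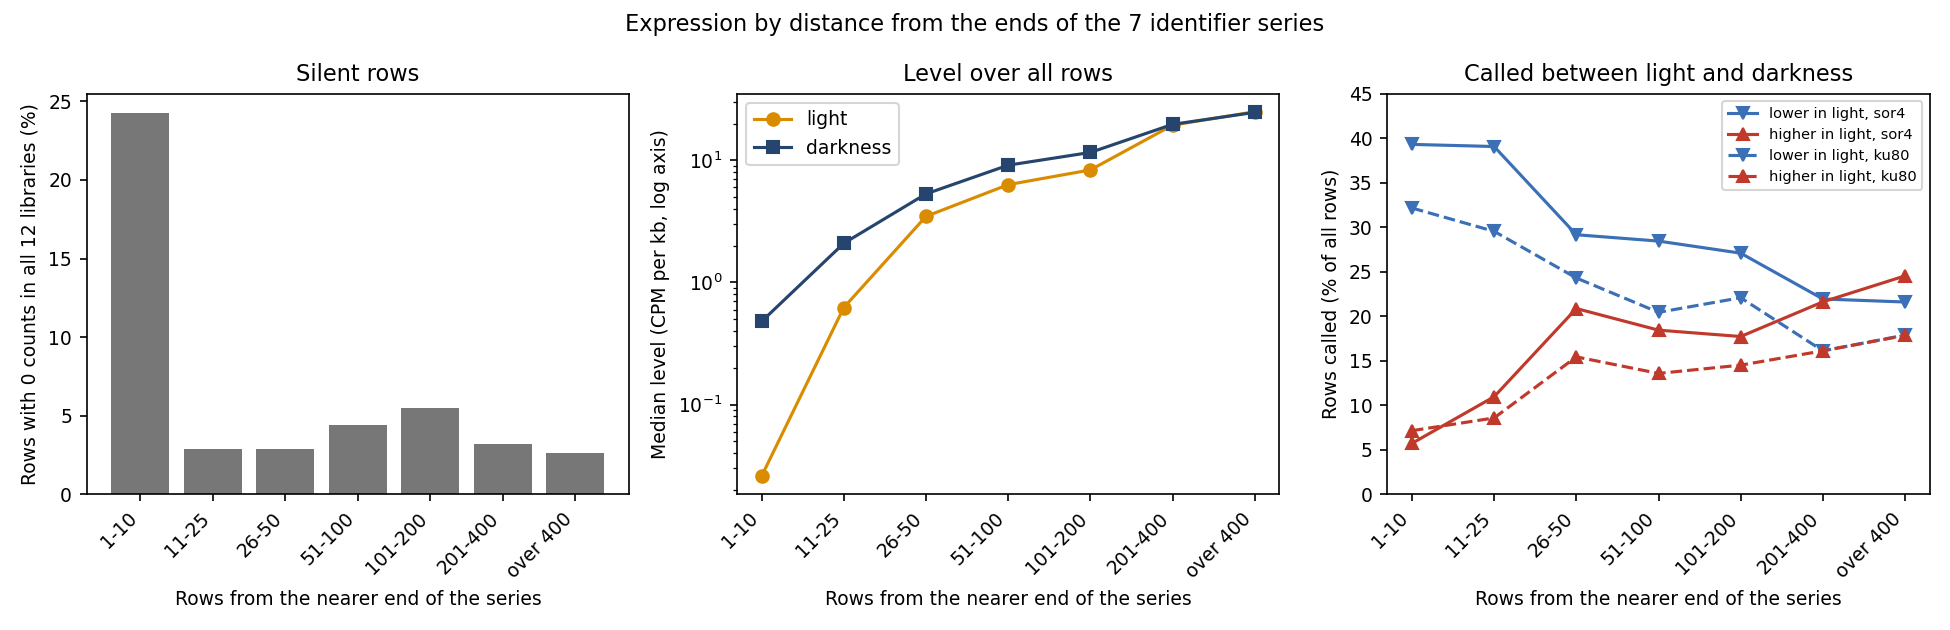
Rows grouped by rank from the nearer end of their series (x axis): the percent silent (left, bars), the median level in light and in darkness in CPM per kb on a log axis (middle), and the percent of all rows called lower or higher in light in sor4 (solid lines) and ku80 (dashed lines) (right). Silence is concentrated at ranks 1 to 10 (24.3%), levels climb to about rank 400, and calls of lower in light fall from 39.3% at ranks 1 to 10 to 21.6% beyond rank 400 in sor4. The calls include rows admitted by their dark libraries alone.

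Over their 50 rows, all 14 ends had a median level below that of rows beyond rank 400. At ranks 1 to 10 and at ranks 26 to 50 this held for each of the 14 ends in light and in darkness. At ranks 11 to 25 it held for 14 ends in light and 13 in darkness, and at ranks 51 to 100 and from there to rank 200 for 13 ends in both conditions. The start of G stood out, with a median of 10.7 CPM per kb in light and 51.9 in darkness at ranks 11 to 20. Over its 50 rows, the median level in light was lowest at the end of C (0.494 CPM per kb) and highest at the end of B (3.87). In darkness it was lowest at the end of D (1.18) and highest at the start of B (6.78). The ratio of darkness over light ran from 1.02 at the end of F to 5.45 at the start of E. The limit of 50 rows was not a step in the data: the 14 rows at rank 50, just inside it, had median levels of 9.78 in light and 13.4 in darkness, and the 14 rows at rank 51, just outside it, had 3.31 in light and 3.99 in darkness.

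Light and darkness were compared in each strain with edgeR's quasi-likelihood test, fitted over all rows of the 12 libraries that had enough counts. Of the terminal rows, 501 entered the test (71.6%), against 8438 of the remaining rows (82.9%). Another 149 terminal rows had counts but too few to be tested. Of the 501 tested rows, 111 passed the filter through their dark libraries alone and 28 through their light libraries alone. A row that passed through 1 condition alone was tilted by the filter towards a higher level in that condition, though not every such row was called. Of the 111 rows, 95 were called lower in light in sor4 and 75 in ku80. Of the 28 rows, 14 were called higher in light in each strain. Such rows are part of the counts of calls given over all 700 rows.

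Terminal rows were lower in light more often than higher, in both strains. In sor4, 239 of the 700 rows were lower in light (34.1%) and 104 were higher (14.9%), with a Benjamini-Hochberg adjusted p under 0.05 in edgeR. Over all tested rows, 28.8% were called lower and 26.6% higher. Of the remaining rows, 22.9% were lower and 22.4% higher as a share of all rows. In ku80, 192 terminal rows were lower (27.4%) and 82 higher (11.7%), where 22.8% of all tested rows were called lower and 19.8% higher. Of the remaining rows, 18.1% were lower and 16.6% higher in ku80.

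Much of this excess came from rows admitted by their dark libraries alone, which made up 95 of the 239 lower calls in sor4 and 75 of the 192 in ku80. The 362 terminal rows that passed the filter in light and in darkness each, a choice made after seeing the data, had 144 lower (39.8%) and 90 higher (24.9%) in sor4, against 25.7% lower and 27.8% higher of 7742 such remaining rows. In ku80 they had 117 lower (32.3%) and 68 higher (18.8%), against 20.6% lower and 20.7% higher. By distance in sor4, lower calls were 62.9% of 35 such rows at ranks 1 to 10, 48.0% of 102 at ranks 11 to 25 and 32.4% of 225 at ranks 26 to 50. Their median log2 fold change was smaller, at -0.21 in sor4 and -0.16 in ku80 for the terminal rows, and 0.02 in sor4 and 0.0006 in ku80 for the remaining rows. This restriction also takes out rows that were near 0 in one condition.

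The strains gave the same direction for every terminal row called in both. Both strains called 179 rows lower in light and 65 rows higher, against 20.3% lower and 17.6% higher of all tested rows, and no row (0) was called in opposite directions. The median log2 fold change of light over darkness among the tested terminal rows was -0.63 in sor4 and -0.56 in ku80, while over all tested rows it was -0.01 in sor4 and -0.02 in ku80. With rows at 0 in a group set to their bound, the ku80 median was again -0.56. Scaling by library size alone kept the split of the terminal rows, at 234 lower and 107 higher in sor4 and 182 lower and 90 higher in ku80. It moved all tested rows to 2388 lower and 2571 higher in sor4 and to 1790 lower and 2086 higher in ku80.

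Many of the largest decreases in light in the whole table lay in terminal rows. Among the terminal rows, 75 in sor4 and 71 in ku80 were at least 16-fold lower in light, out of 360 and 356 such rows in the whole table. Of all tested rows, 4.03% in sor4 and 3.98% in ku80 were that much lower. These counts include rows admitted by their dark libraries alone, 111 terminal and 420 remaining rows. The median log2 fold change of such terminal rows was -4.42 in sor4 and -4.96 in ku80. For such remaining rows it was -3.72 in sor4 and -3.91 in ku80. The part of these rows in the counts of 16-fold decreases was not tested. At least 16-fold higher were 6 terminal rows in sor4 and 8 in ku80, out of 67 and 91 in the table, where 0.75% and 1.02% of all tested rows were that much higher. Seen by level, 24 terminal rows averaged below 0.5 CPM in light and at least 5 CPM in darkness (3.43%), against 0.993% of the remaining rows. The reverse held for 1 terminal row (0.143%) and 14 remaining rows (0.138%).

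The excess of rows lower in light was strongest in the outermost rows, up to about rank 30. In sor4, 39.3% of rows at ranks 1 to 10 and 39.0% at ranks 11 to 25 were lower in light, then 29.1% at ranks 26 to 50, 28.4% at ranks 51 to 100, 27.1% from there to rank 200, 21.9% from there to rank 400 and 21.6% beyond. The share higher in light in sor4 ran the other way, with 5.71% at ranks 1 to 10, 10.95% at ranks 11 to 25, 20.9% at ranks 26 to 50 and 24.5% beyond rank 400. In ku80 the share lower in light was 32.1%, 29.5% and 24.3% at ranks 1 to 10, 11 to 25 and 26 to 50, and 17.9% beyond rank 400. In these bins both strains had their highest share of lower calls at the outermost ranks. In bins of 10 rows, the sor4 share was 39.3% at ranks 1 to 10 and at ranks 11 to 20, and 38.6% at ranks 21 to 30. The ku80 share in the same bins was 32.1%, 27.1% and 33.6%, so ranks 1 to 10 were not its highest. Rows admitted by their dark libraries alone gave 33 of the 55 lower calls in sor4 at ranks 1 to 10 and 33 of 82 at ranks 11 to 25. In ku80 they gave 26 of 45 and 27 of 62. Among rows that passed in each condition, lower calls in ku80 were 54.3%, 34.3% and 28.0% at ranks 1 to 10, 11 to 25 and 26 to 50.

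Because terminal rows have low levels, the calls were also read within 3 equal groups of all tested rows by level. Among ranks 1 to 25 in sor4, 59.4% of tested rows in the lowest group, 67.5% in the middle group and 65.2% in the highest group were lower in light. For the remaining rows the shares were 28.9%, 23.0% and 31.0%. Ranks 26 to 50 lay between, with 42.9% in the lowest group and 32.3% in the middle group, and had 24.6% in the highest group, below the remaining rows. These shares are over the tested rows, which the filter shapes, and are a description only, with 160, 40 and 23 rows of ranks 1 to 25 in the lowest, middle and highest group.

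The 14 ends differed widely among themselves. The start of E had 36 of 50 rows lower in light and 1 higher in sor4, and 27 lower and 2 higher in ku80. Next in sor4 came the start of B with 21 lower, and the end of A and the start of G with 20 each. The end of E stood at the other side, with 8 lower and 13 higher in sor4 and 7 lower and 10 higher in ku80. The start of C had 11 lower and 14 higher in sor4 and 7 lower and 11 higher in ku80. Lower calls outnumbered higher calls at 12 of the 14 ends in sor4 (all but the start of C and the end of E). In ku80 they did so at 11 ends, since the start of A had 10 of each. Without the start of E, 203 of 650 terminal rows were lower in light in sor4 (31.2%) and 165 in ku80 (25.4%). Rows admitted by their dark libraries alone are part of these counts. They were fewest at the start of A (3) and most at the end of A and the start of E (14 each).

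**Figure D2:**
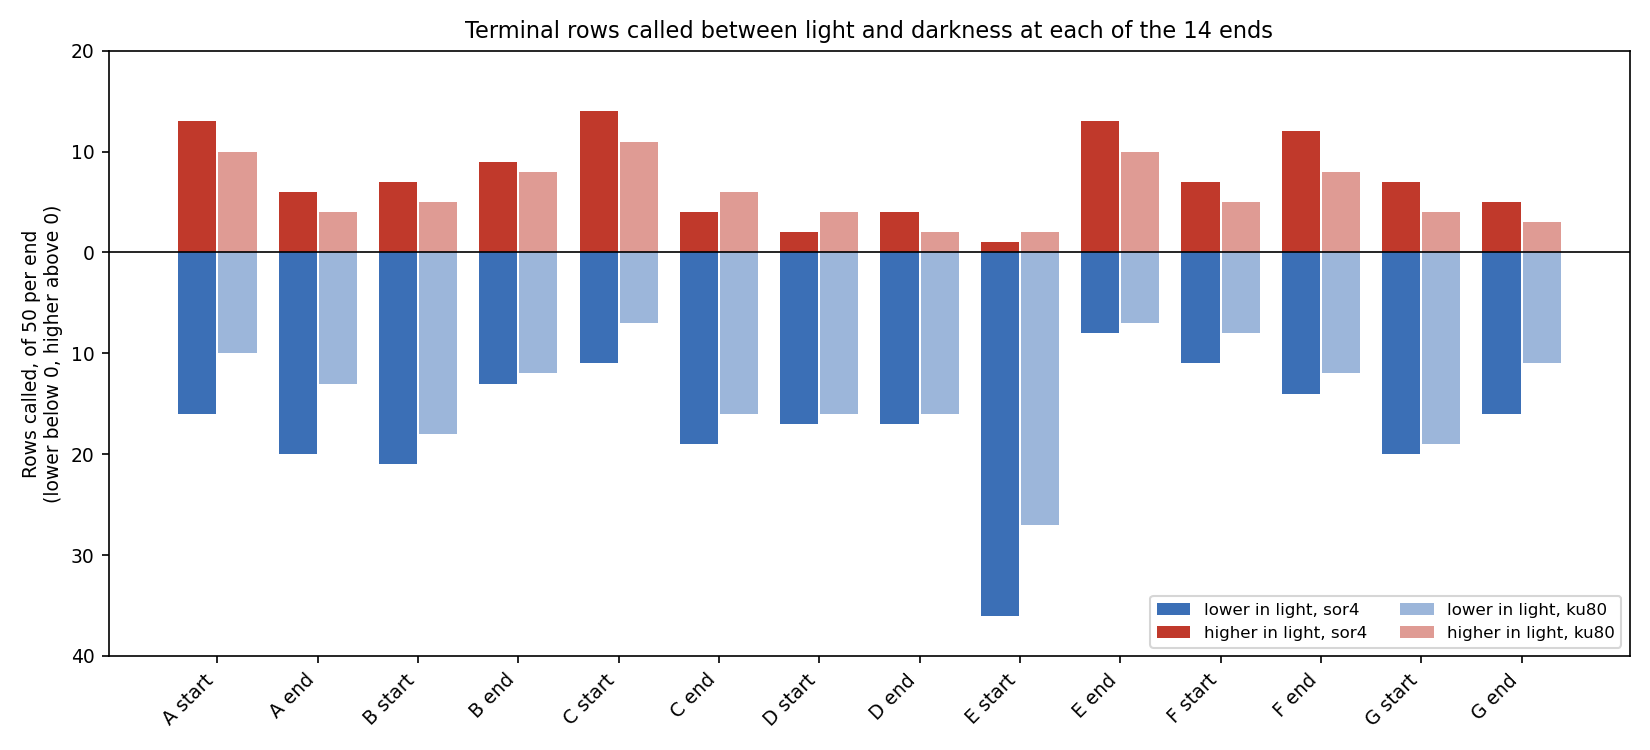
Number of rows called lower in light (bars below 0) or higher in light (bars above 0) among the 50 rows of each of the 14 ends, in sor4 (dark bars) and ku80 (pale bars). The start of E has 36 rows lower in light in sor4, and the end of E and the start of C have more higher than lower.

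At the start of E the decrease covered most of the 50 rows rather than a few. All 10 rows at ranks 11 to 20 and 9 of the 10 at ranks 1 to 10 were lower in light in sor4. The median log2 fold change of its 43 tested rows was -2.47 in sor4 and -1.73 in ku80 (-1.69 with rows at 0 set to their bound). Of these 43 rows, 14 passed the filter through their dark libraries alone, which tilts them towards lower in light, and 27 passed in each condition. Values for the start of E without the 14 rows are not given here. Its outermost row TrE0001C had 0 counts in all 6 light libraries, and 1.29, 8.12, 8.38 and 1.97 CPM in sor4 darkness and 1.86 and 4.32 CPM in ku80 darkness. With 3 counts over the light group as the floor, it was at least 64.4-fold lower in light in sor4 and at least 19.5-fold lower in light in ku80. Its most abundant row, TrE0021C, had 185, 152, 157 and 189 CPM in sor4 light, against 421, 393, 368 and 381 CPM in sor4 darkness, a log2 fold change of -1.19 ± 0.11 (SE). In ku80 it had 111 and 155 CPM in light, against 408 and 421 CPM in darkness. Light and dark libraries did not overlap for either row.

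Among the other outermost rows, TrC1580C and TrA0001W were tested. The outermost row at the end of C, TrC1580C, had 0.608, 0.794, 1.18 and 0.839 CPM in sor4 light, against 6.02, 14.5, 6.86 and 5.99 CPM in sor4 darkness, and 0.288 and 0.375 CPM in ku80 light, against 5.89 and 8.63 CPM in ku80 darkness. It was lower in light in both strains, with log2 fold changes of -3.25 ± 0.37 in sor4 and -4.42 ± 0.61 in ku80 (SE) and edgeR adjusted p of 2.03e-05 and 1.65e-04. At the start of A, TrA0001W, 9003 nucleotides long, had 14.2, 15.9, 14.1 and 16.7 CPM in sor4 light, against 37, 23.3, 41.4 and 38.5 CPM in sor4 darkness. It was lower in light in sor4 (log2 fold change -1.20 ± 0.17, SE, edgeR adjusted p 1.22e-04). Its level in ku80 was 18.6 and 25.6 CPM in light, against 32.6 and 35.2 CPM in darkness, and did not pass (edgeR adjusted p 0.0569). The other outermost rows with counts, TrB0001W, TrC0001C and TrG1209W, had 1, 15 and 8 counts in all.

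**Figure D3:**
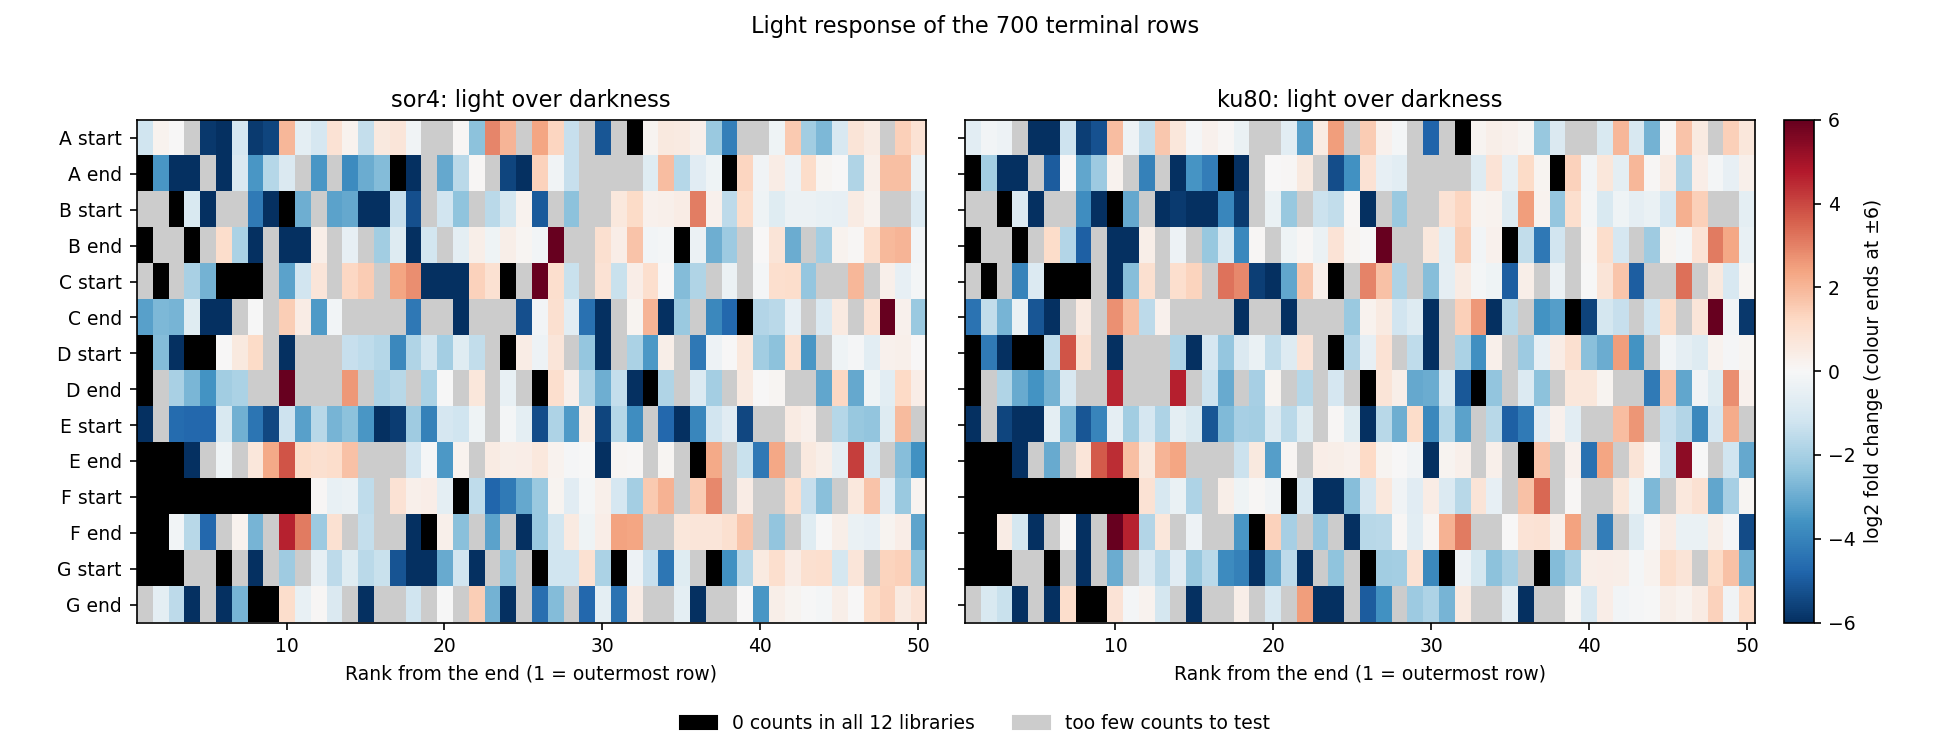
Log2 fold change of light over darkness for each of the 50 rows at the 14 ends (one end per line, rank 1 at the left), in sor4 (left) and ku80 (right), with blue for lower in light and red for higher. Black rows had 0 counts in all 12 libraries, grey rows had too few counts to test. Blue dominates the outermost ranks and most of the start of E, and the start of F opens with 11 black rows.

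The share of all counts taken by terminal rows was smaller in light. It was 2.11, 2.16, 2.23 and 2.28% in the sor4 light libraries, against 3.6, 3.71, 3.07 and 3.42% in the sor4 dark libraries. In ku80 it was 1.88 and 2.38% in light, against 3.57 and 3.55% in darkness. No light library reached a dark library of its strain. A few abundant rows carried much of this difference: without TrG0022C, TrA0027W and TrG1206C, the 3 most abundant terminal rows, the share averaged 1.99 ± 0.0434% in sor4 light and 2.56 ± 0.108% in sor4 darkness (SD, n = 4 each). In ku80 it averaged 2.04 ± 0.326% in light and 2.52 ± 0.0361% in darkness (SD, n = 2 each).

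By distance, the difference lay in the outer 25 ranks. Ranks 1 to 10 took 0.0568 ± 0.00468% of counts in sor4 light and 0.408 ± 0.0955% in sor4 darkness (SD, n = 4 each), 7.19-fold more in darkness. In ku80 they took 0.0631 and 0.0632% in light, against 0.456 and 0.392% in darkness. One row, TrG1206C, held 55.0% of these counts in sor4 darkness, and without it ranks 1 to 10 took 0.0567 ± 0.00475% in sor4 light and 0.183 ± 0.0384% in sor4 darkness. Ranks 11 to 25 took 0.422 ± 0.0389% in sor4 light and 1.42 ± 0.184% in sor4 darkness, and without TrG0022C 0.421 ± 0.0390% in sor4 light and 0.841 ± 0.0522% in sor4 darkness. Ranks 26 to 50 took 1.71 ± 0.0568% in sor4 light and 1.62 ± 0.0360% in sor4 darkness, and the libraries overlapped. The shares in sor4 darkness replicate 3 were the lowest of its group at ranks 1 to 10 (0.272%) and at ranks 11 to 25 (1.19%), and lay above every light library in both.

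**Figure D4:**
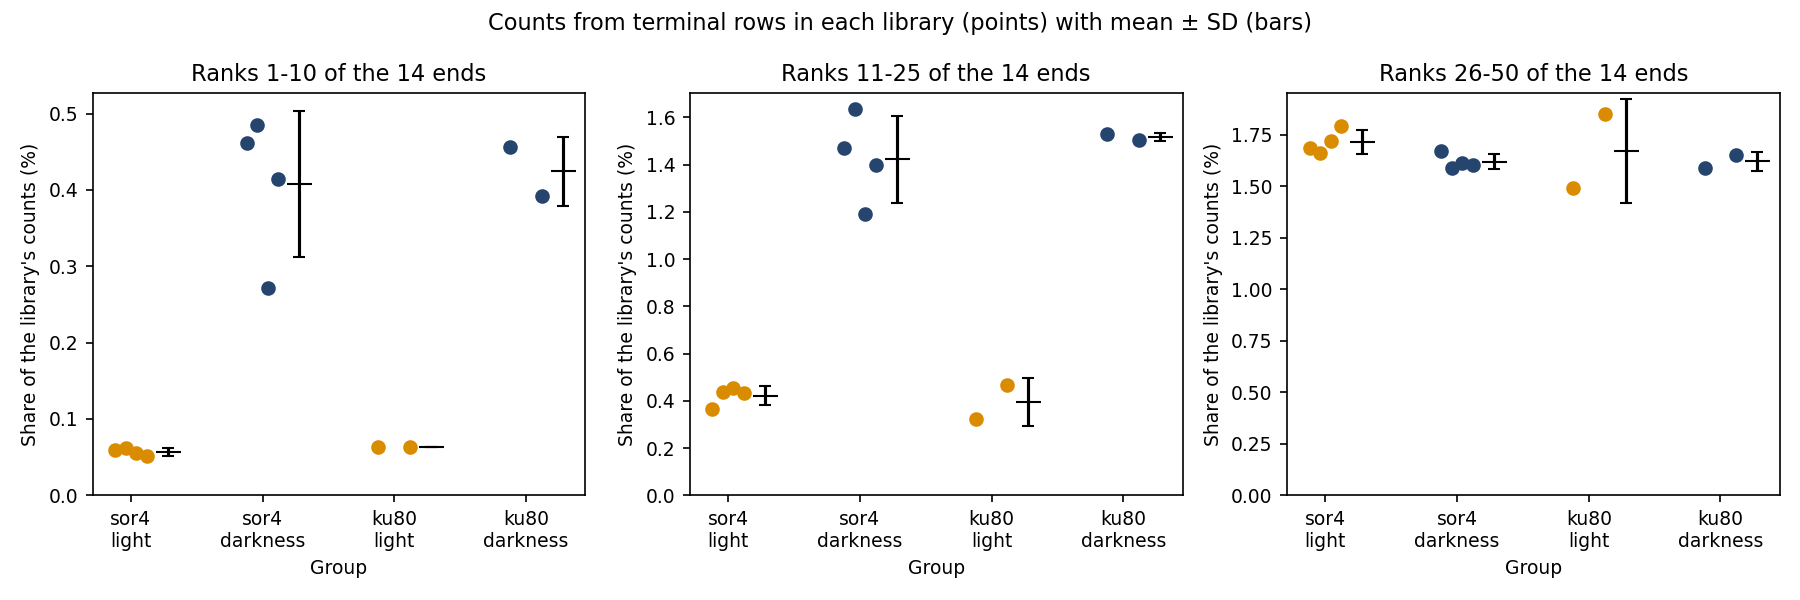
Percent of each library's counts assigned to terminal rows at ranks 1 to 10 (left), 11 to 25 (middle) and 26 to 50 (right), with 1 point per library, light in orange and darkness in blue, and the mean ± SD of each group beside the points. Light and dark libraries are apart at ranks 1 to 25 and overlap at ranks 26 to 50.

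End by end, the direction of the summed counts was mixed. In sor4, the share of counts was lower in every light library than in every dark library at 8 ends, higher at 5 ends and overlapping at the start of F. In ku80 the share was lower at 7 ends, higher at 4 and overlapping at 3. The ends with more counts in light in both strains were the end of B, the start of C, the end of E and the end of F. Without its row of highest mean CPM, the first 3 of these stayed higher in light in both strains. The end of F without TrF1176C averaged 0.145% in sor4 light and 0.181% in sor4 darkness, and 0.173% in ku80 light and 0.177% in ku80 darkness. The start of A, higher in light in sor4, averaged 0.0643% in sor4 light and 0.0812% in sor4 darkness without TrA0027W. The start of G changed most, with 0.195 ± 0.0475% in sor4 light and 0.972 ± 0.167% in sor4 darkness (SD, n = 4 each), and 0.0988 and 0.238% in ku80 light, against 1.14 and 1.17% in ku80 darkness. Without TrG0022C it took 0.195 ± 0.0474% in sor4 light and 0.389 ± 0.0376% in sor4 darkness.

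Some single terminal rows were near 0 in light and among the most abundant rows of the table in darkness. Of the terminal rows, TrB1932W, TrG0015C, TrG0022C and TrG1206C were among the top 1% of all lettered rows by level in darkness, and only TrB1932W was in light. TrG0022C, at rank 22 of the start of G, had 7.05, 4.24, 6.37 and 8.39 CPM in sor4 light, against 6218, 7383, 4184 and 5782 CPM in sor4 darkness. In ku80 it had 7.29 and 8.25 CPM in light, against 7642 and 7458 CPM in darkness. This was a log2 fold change of -9.82 ± 0.28 in sor4 and -9.92 ± 0.39 in ku80 (SE, edgeR adjusted p 3.31e-10 and 1.30e-08). Light and dark libraries did not overlap in either strain.

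At the end of G, a pair of rows had the same pattern. TrG1206C at rank 4 had 0, 0.353, 0.685 and 1.68 CPM in sor4 light, against 2523, 2815, 1499.7 and 2276 CPM in sor4 darkness, and 0 and 0.625 CPM in ku80 light, against 2639.7 and 2201 CPM in ku80 darkness. Its pooled counts were 3153-fold lower in light (95% exact interval 2196 to 4709) in sor4 and 8860.1-fold lower in light (95% exact interval 3796 to 27289) in ku80. Exact intervals of pooled counts, here and below, cover counting error only and leave out the spread between libraries. TrG1195C at rank 15 had 2 counts in all in the 4 sor4 light libraries and 1 in the 2 ku80 light libraries. In darkness its level was 839, 877, 593 and 897 CPM in the sor4 libraries, with 928 and 738 CPM in ku80. Its pooled counts were 16259-fold lower in light (95% exact interval 4501 to 134260.0) in sor4 and 15224-fold lower in light (95% exact interval 2732 to 601352) in ku80, with edgeR adjusted p of 2.84e-10 and 1.26e-08. It was the terminal row with the largest fitted decrease in both strains.

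The end of B held TrB1968W at rank 10, which had no count in any of the 4 sor4 light libraries and 115, 133, 79.7 and 135 CPM in sor4 darkness. It was at least 1563-fold lower in light in sor4 with the same floor. Its level in ku80 was 0 and 0.375 CPM in light, against 103 and 160.3 CPM in darkness. The same end held the strongest increase seen in both strains with counts in every library, TrB1951W at rank 27. It had 230.2, 270.2, 233 and 163 CPM in sor4 light, against 0.645, 1.26, 2.72 and 1.03 CPM in sor4 darkness, a log2 fold change of 7.29 ± 0.34 (SE, edgeR adjusted p 1.64e-08). In ku80 it had 366 and 253 CPM in light, against 0.207 and 0.809 CPM in darkness. Light and dark libraries did not overlap for either row, in opposite directions.

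The rule for named rows also gave TrC1533C, at rank 48 of the end of C, and TrF1202W, at rank 10 of the end of F, as large increases in light. TrC1533C had 131, 119, 90.2 and 86.4 CPM in sor4 light, against 0, 0.114, 2.42 and 0 CPM in sor4 darkness. Its level in ku80 was 135 and 337 CPM in light, against 0 and 0.27 CPM in darkness. Its pooled counts were 167-fold higher in light (95% exact interval 113 to 259) in sor4 and 1544-fold higher in light (95% exact interval 528 to 7490.4) in ku80. The sor4 interval leaves out the spread between the dark libraries, which was wide for this row. TrF1202W had 34.5, 36.7, 18.3 and 17.6 CPM in sor4 light, against 0, 0.114, 4.14 and 0 CPM in sor4 darkness. In ku80 it had 61.5 and 41.8 CPM in light and no count in darkness, and was at least 367-fold higher in light against the floor. In both rows most of the sor4 dark counts came from replicate 3, and without it the log2 fold change in sor4 was 11.17 for TrC1533C and 9.18 for TrF1202W, against 7.37 and 4.64 with it.

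**Figure D5:**
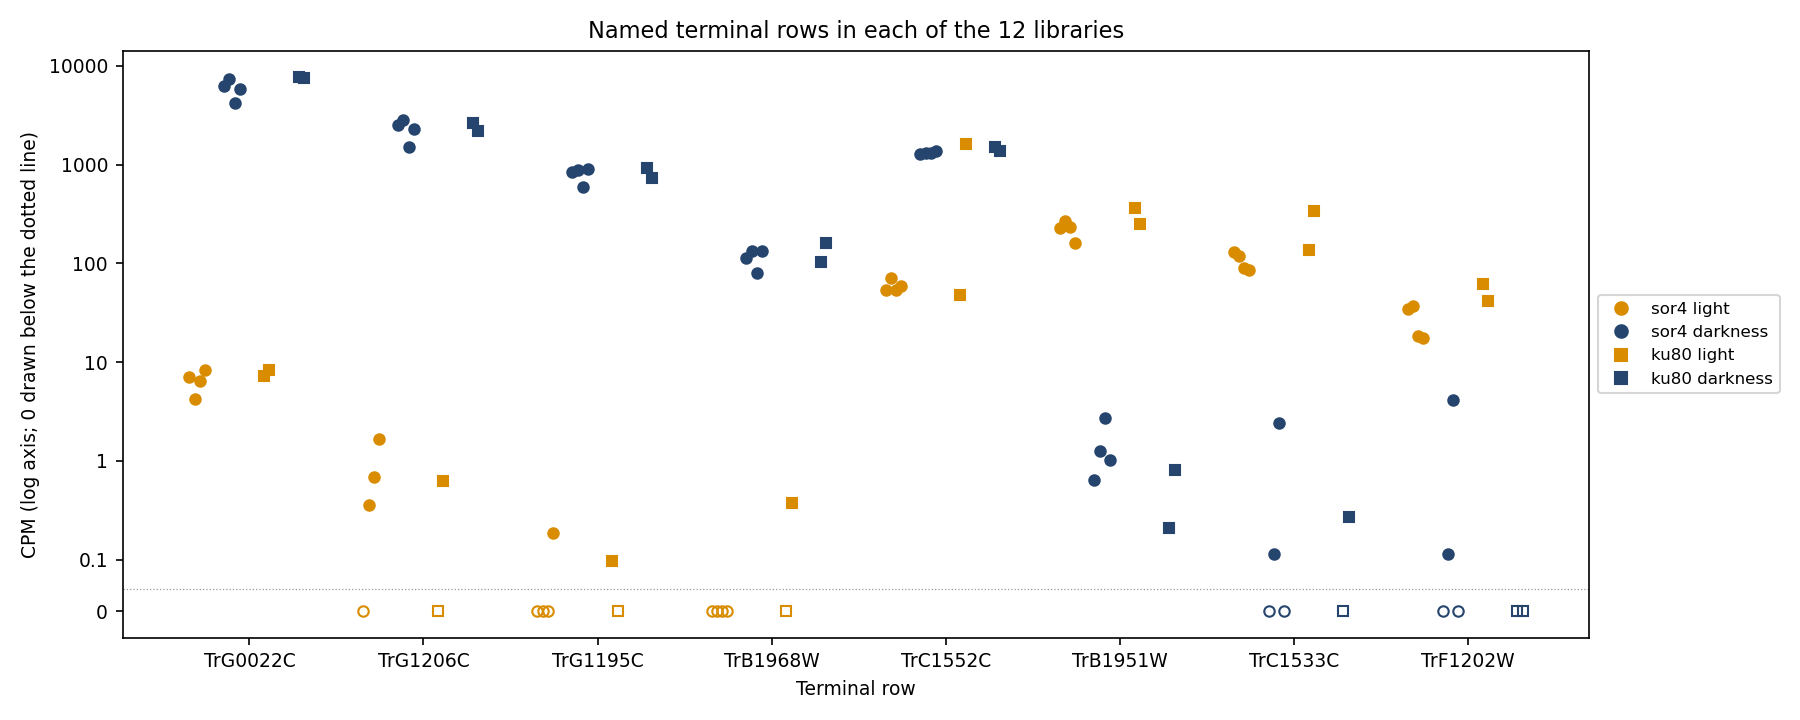
CPM of 8 named terminal rows in each of the 12 libraries on a log axis, with sor4 as circles, ku80 as squares, light in orange and darkness in blue. Open symbols under the dotted line are libraries with 0 counts. The first 4 rows are lower in light in every library, the last 3 are higher, and TrC1552C is split between the ku80 light libraries.

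The most abundant row of each end did not follow one direction. By level over the 4 groups these rows were TrA0027W, TrA2106W, TrB0021C, TrB1932W, TrC0041C, TrC1552C, TrD0036W, TrD1439W, TrE0021C, TrE1264W, TrF0013C, TrF1175C, TrG0022C and TrG1206C. TrB0021C, TrD0036W, TrD1439W, TrE0021C, TrF0013C, TrG0022C and TrG1206C were lower in light in both strains. TrC0041C and TrF1175C were higher in both. TrD0036W moved with 1 library, with a log2 fold change in ku80 of -4.86 without ku80 light replicate 2 and -1.29 without replicate 1, against -2.19 with both. TrB1932W, at rank 46 of the end of B, passed in neither strain, with 709, 703, 745 and 707 CPM in sor4 light, against 679, 740.3, 598 and 752 CPM in sor4 darkness, a log2 fold change of 0.05 ± 0.10 (SE). TrC0041C had 227, 257, 234 and 249.8 CPM in sor4 light, against 131, 112, 116 and 124 CPM in sor4 darkness, and its libraries did not overlap (log2 fold change 1.00 ± 0.08).

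TrA0027W was higher in light in sor4, with 1814, 1469.7, 2187 and 2515 CPM in light, against 235, 1067, 972 and 966 CPM in darkness (log2 fold change 1.30 ± 0.40, SE, edgeR adjusted p 0.0153). Its level in ku80 was 657 and 1090.0 CPM in light, against 903 and 541 CPM in darkness, and did not pass (edgeR adjusted p 0.714). The difference between the strains in the effect of light did not pass for any terminal row. For TrC1552C, at rank 29 of the end of C, the ku80 light libraries disagreed: it had 47.3 and 1614 CPM in them, against 1496 and 1378 CPM in ku80 darkness. In sor4 it had 53.6, 71.7, 53.4 and 59.3 CPM in light, against 1293, 1299.8, 1299.9 and 1389 CPM in darkness. The log2 fold change in ku80 was -0.79 ± 0.91 (SE, edgeR adjusted p 0.512), and it was -4.90 without ku80 light replicate 2 and 0.18 without replicate 1.

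Rows lower in light lay next to each other in runs. Among rows tested and called in both strains, 37 runs of at least 2 consecutive numbers were lower in light, and they held 100 rows. Runs higher in light numbered 12, each of 2 rows. Rows lower in both strains made up 25.6% of the terminal and 16.1% of the remaining rows, and rows higher in both 9.29% and 14.8%. In sor4, 105 of 371 terminal and 698 of 7224 remaining pairs of consecutive tested rows were both lower in light. Runs among the remaining rows are not given here, and whether the runs exceed what the share of lower calls gives was not tested. The longest run, of 6 rows, was TrG0017C to TrG0022C at the start of G. It depends on TrG0021W, which kept its call in 14 of 20 alternatives in sor4 and in 8 of 20 in ku80. Where that call is lost, the run ends at TrG0020C and TrG0022C stands apart. Runs of 5 were TrA0005W to TrA0009W at the start of A and TrE0003W to TrE0007W at the start of E, and 6 further runs had 4 rows.

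Within the run at the start of G, the size of the decrease varied. TrG0019C had 6.69, 5.21, 7.74 and 9.42 CPM in sor4 light, against 755, 802, 592 and 911 CPM in sor4 darkness, and 3.74 and 6.38 CPM in ku80 light, against 886 and 927 CPM in ku80 darkness. TrG0018C had 3.77, 1.85, 4.41 and 4.2 CPM in sor4 light, against 355, 268, 241 and 397 CPM in sor4 darkness, and 2.59 and 35.8 CPM in ku80 light, against 343 and 279 CPM in ku80 darkness. Both fell in every light library, though the ku80 light libraries of TrG0018C were far apart, and its log2 fold change in ku80 was -6.88 without replicate 2 and -3.11 without replicate 1. The smallest change of the run was that of TrG0021W, with log2 fold changes of -1.19 ± 0.42 in sor4 and -1.57 ± 0.57 in ku80. TrG0021W lost its call in ku80 when any of 8 of the 12 libraries was left out. The largest change was that of TrG0022C.

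The neighbours just outside the run, TrG0015C and TrG0016W, were lower in light on average but not called. TrG0016W had 82.1, 522, 787 and 628 CPM in sor4 light, against 1396, 1396, 1031 and 1279.6 CPM in sor4 darkness, and 29.4 and 879.6 CPM in ku80 light, against 1388 and 1394 CPM in ku80 darkness (edgeR adjusted p 0.167 in sor4 and 0.264 in ku80). Its light libraries were far apart within both strains, with replicate 1 lowest in each. TrG0015C had the same order, with 31.9, 207, 312 and 257 CPM in sor4 light, against 735, 661, 466 and 632 CPM in sor4 darkness.

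In the run at the start of A, TrA0009W had 0.486, 0.794, 1.76 and 0.466 CPM in sor4 light, against 51.9, 38.1, 34.1 and 39.3 CPM in sor4 darkness. TrA0007W, in the middle of the run, was the least changed of its 5 rows, with 12, 13.4, 13.9 and 10.5 CPM in sor4 light, against 25.2, 21.1, 27.2 and 27.7 CPM in sor4 darkness. At the start of B, the run from TrB0013C to TrB0016W held TrB0016W, with 0, 0, 0.196 and 0.187 CPM in sor4 light, against 63, 81.2, 129 and 72.5 CPM in sor4 darkness. At the end of C, the run from TrC1575C to TrC1578W held TrC1575C, with 0.851, 1.76, 0.392 and 1.49 CPM in sor4 light, against 154, 177, 186 and 333 CPM in sor4 darkness. These 4 rows were chosen after their values were seen. Of the runs higher in light, TrE1297C and TrE1298C lay at ranks 11 and 10 of the end of E, and TrE1298C had 164, 159, 184 and 142 CPM in sor4 light, against 10.6, 6.75, 14.5 and 15.1 CPM in sor4 darkness.

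The fold changes of neighbouring rows were correlated at the ends and elsewhere, and for consecutive rows more strongly at the ends. Across pairs of consecutive tested rows, the log2 fold changes of light over darkness in sor4 correlated with r = 0.398 among 371 terminal pairs and r = 0.304 among 7224 remaining pairs. Spearman's rank correlation of the same pairs was 0.442 for terminal and 0.199 for remaining pairs in sor4. In ku80 it was 0.354 for terminal and 0.182 for remaining pairs. For rows 5 numbers apart, r was 0.055 among 334 terminal pairs and 0.096 among 7056 remaining pairs. These are descriptions across rows measured in the same libraries, and rows are not independent replicates.

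No terminal row was called between the strains. Comparing sor4 with ku80, edgeR called 0 terminal rows in darkness, 0 in light and 0 for the difference between the strains in the effect of light. Of all tested rows, 0.0336% were called lower and 0% higher in darkness, and 0% in light and for the difference. At an unadjusted p under 0.05 there were 36 terminal rows in darkness (7.19%, against 7.75% of all tested rows), 64 in light (12.8%, against 8.17%) and 48 for the difference (9.58%, against 6.59%). DESeq2 called 2 terminal rows in darkness, 3 in light and 0 for the difference, where it called 0.843%, 0.589% and 0.11% of the rows it adjusted, and limma-voom called 0 in each.

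The rows nearest to the threshold had modest or uneven differences. TrG0041C had the smallest edgeR adjusted p in darkness (0.209), with 197, 167, 221 and 189 CPM in sor4 darkness and 259.9 and 429 CPM in ku80. DESeq2 called it and TrC0033W lower in sor4 in darkness. In light DESeq2 called TrA2102C higher in sor4, with 6.57, 7.76, 6.37 and 6.9 CPM in sor4 light and 1.44 and 2.75 CPM in ku80. It called TrC1552C and TrF0026W lower, and TrC1552C is the row whose ku80 light libraries disagreed. The 95% interval, by a normal approximation from the SE, stayed inside a 2-fold change for 238 of the 501 tested rows in darkness. It did so for 225 in light and for 147 in the difference of the light effect. With so few libraries this approximation gives narrow intervals, so these counts may be too high. For the other rows a 2-fold change between the strains was not bounded by these libraries.

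Among the 12 libraries, only ku80 libraries changed the strain calls when left out. Without ku80 light replicate 1, edgeR called 4 terminal rows lower and 1 higher in sor4 in light, and 3 rows for the difference of the light effect. Without ku80 light replicate 2 it called 1 row higher in light, and without ku80 dark replicate 1 it called 1 row lower in darkness. These fits have 1 library in a ku80 group and borrow its spread from the other groups. The median log2 fold change of sor4 over ku80 among tested terminal rows was 0.11 in darkness and 0.02 in light, beside 0.01 in darkness and 0 in light over all tested rows. In darkness it was highest at the start of E (0.37).

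Terminal rows also varied more between replicates, in a comparison not matched for level. Of the tested rows, 316 of 501 terminal and 2664 of 8438 remaining rows lay in the lowest of the 3 groups by level. The part of level in the spread was not tested. Among rows with at least 5 CPM on average, the median standard deviation of log2 CPM was 0.157 for 247 terminal rows and 0.110 for 6871 remaining rows in sor4 light. In sor4 darkness it was 0.265 for 319 terminal rows and 0.165 for 7079 remaining rows, and 19 terminal rows (5.96%) and 139 remaining rows (1.96%) had a standard deviation over 1. Between the ku80 light libraries, 9 of 247 terminal rows (3.64%) and 84 of 6861 remaining rows (1.22%) were more than 4-fold apart. All 9 were higher in replicate 2: TrA0017W, TrC0042C, TrC1552C, TrD0036W, TrF1209W, TrG0015C, TrG0016W, TrG0018C and TrG0034W. Between the ku80 dark libraries 1 of 303 terminal rows was that far apart. Without replicate 2, 162 terminal rows were lower and 60 higher in light in ku80, and without replicate 1, 167 were lower and 80 higher. The part of replicate 2 in the calls was not tested apart from the loss of a library.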

How the data were processed

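Read counts per gene came from 12 mycelial libraries. A plant RNA kit, ribosomal RNA depletion and a stranded library kit were used, per the labels' protocols. The submitters' processing notes name the aligner HISAT2 2.2.1. The authors deposited whole-number counts per row with a length, of which 94.7% are multiples of 3, so lengths are mostly coding lengths. Genome build, annotation, strand setting and handling of multi-mapping reads were not given in the sources used here, so rows that overlap, lie antisense or are near-identical may share reads. Totals of 7844524 to 12027855 counts per library set the precision, and 3 counts corresponded to 0.249 to 0.382 CPM in a library.

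Groups came from the titles and treatment labels. The terminal rows and the lists and rules used here were chosen with earlier results of these data known. Counts were tested with edgeR 4.0.16 in R 4.3.3 (TMM scaling, filterByExpr by group, 4 group means over 12 libraries, quasi-likelihood F test, Benjamini-Hochberg adjusted p under 0.05 over 8939 rows, biological coefficient of variation 0.193). The fit was tested on simulated data. CPM used TMM-scaled library sizes. Named rows were the 2 most changed called rows per contrast and direction with at least 5 CPM and no overlap, the most abundant and the outermost row of each end, the longest runs, and rows in the top 1% by level. DESeq2 1.42.0, limma 3.58.1, other scalings and filters, a replicate block, single libraries left out and 25 or 100 rows per end were alternatives. Tables and figures were made with Python 3.11.15, pandas 2.3.3, scipy 1.17.1 and matplotlib 3.10.9. The 3 mating type rows without a letter were in the fit and in neither set.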

Additional observations from a re-analysis of the deposited data

Results flagged for a closer look

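The check covered 124 sets of 4 values, each from the 4 libraries of sor4 in light or in darkness. Of these, 16 had a highest or lowest library far from the others by Dixon's criterion. For normally distributed values, chance alone gives this in about 1 in 20 sets. Some sets here lay at or near 0, and many rows were named for large changes, so the 16 cannot be read against that rate. For 3 ends the value apart was the share of counts. The start of A took 0.118% in replicate 1 of sor4 darkness and 0.170 to 0.177% in its other replicates. The end of B took 0.261% in sor4 dark replicate 2, against 0.240 to 0.243%. The start of C took 0.147% in sor4 light replicate 2, against 0.138 to 0.139%.

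The others were single rows, and sor4 dark replicate 3 recurred among them. In that library TrC1533C had 2.42 CPM, and 0 to 0.114 CPM in the rest of its group. In the same library TrF1202W had 4.14 CPM, against 0 to 0.114 CPM, TrC0014C had 14.5 CPM, against 10.8 to 11.3 CPM, and TrG0048W had 53.0 CPM, against 20.5 to 25.5 CPM. In sor4 dark replicate 1, TrA0027W had 235 CPM, and the rest of its group 966 to 1067 CPM. In that replicate TrF1175C had 92.3 CPM, against 96.3 to 96.9 CPM, and TrF0036C had 4.62 CPM, against 1.95 to 2.32 CPM. TrC1552C had 1389 CPM in sor4 dark replicate 4, against 1293 to 1299.9 CPM.

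Among the sor4 light libraries, replicate 3 was apart for TrB0021C with 42.1 CPM, against 33.4 to 34.2 CPM in the others. It was also apart for TrB1932W with 745 CPM, against 703 to 709 CPM, and for TrC0015C with 1.96 CPM, against 3.65 to 3.97 CPM. TrF0036C had 10.6 CPM in sor4 light replicate 2, against 6.66 to 7.05 CPM. TrG1195C had 0.187 CPM in sor4 light replicate 4 and 0 in the other sor4 light libraries.

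For 2 rows the difference between the strains had opposite directions in light and in darkness without overlap of the libraries. TrE1295W averaged 2.09 CPM in sor4 light and 2.80 CPM in ku80 light, and 1.02 CPM in sor4 darkness and 0.676 CPM in ku80 darkness. TrF1201C averaged 168 CPM in sor4 light and 296 CPM in ku80 light, and 19.6 CPM in sor4 darkness and 11.99 CPM in ku80 darkness. This non-overlap is a description and not a test, and edgeR's test of the difference between the strains in the effect of light called neither row (adjusted p 0.77 and 0.705).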

How the results depend on the processing

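Among the recomputed values of the summary results, 489 kept their direction and size and 100 moved. The counts with only the libraries compared were 46 rows higher in light in ku80 and 41 in both strains. DESeq2 called 2 terminal rows lower in sor4 in darkness, 2 lower and 1 higher in light. With 25 rows per end, 137 rows were lower and 31 higher in light in sor4, 107 and 28 in ku80, and 103 and 21 in both. With 100 rows per end these counts were 438 and 233, 335 and 177, and 313 and 151, since the number of rows changed by construction.

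The median log2 fold change of light over darkness was -0.58 in sor4 and -0.48 in ku80 with library size alone, -0.79 in sor4 without a filter, -0.47 in sor4 and -0.44 in ku80 at 5 CPM or more, and -0.47 in sor4 and -0.49 in ku80 with only the libraries compared. It was -1.59 in sor4 and -1.46 in ku80 with 25 rows per end and -0.29 and -0.24 with 100. The median of sor4 over ku80 in light was 0.0012 with median-of-ratios scaling and 0.043 with only the libraries compared. In darkness it was 0.13 with library size alone, 0.13 without a filter and 0.088 at 5 CPM or more, and it was 0.16 in darkness and 0 in light with 25 rows per end and 0.057 in darkness with 100. The cause was not tested.

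The silent share was 11.4% with 25 rows per end, 15.6% for at most 10 counts, 28.4% for rows under the filter and 16.7% for no count in light. Median levels in light and darkness were 0.328 and 1.33 CPM per kb with 25 rows per end, 2.63 and 4.94 with 100, and 4.01 and 8.33 for tested rows.

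Over the rows that passed the filter in light and in darkness each, 144 were lower in light in sor4, 117 in ku80 and 107 in both, with medians of -0.21 in sor4 and -0.16 in ku80, and of 0.053 in light and 0.085 in darkness for sor4 over ku80. This restriction and leaving out an end were chosen after seeing the data. The sor4 median was -0.69 without the start of A, C or F or the end of F, -0.60 without the end of A, the start of B or either end of D, -0.71 without the end of B, -0.58 without the end of C or the start of G, -0.47 without the start of E, -0.74 without its end and -0.66 without the end of G. The ku80 median was -0.61 without the start of A or the end of B, -0.41 without the start of E, -0.63 without its end and -0.51 without the start of G. The strain median in darkness was 0.13 without the start of B and 0.089 without that of E, and in light 0.040 without the end of C and 0.038 without the start of E.

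Leaving out single libraries gave 229 to 252 rows lower and 91 to 110 higher in light in sor4, 153 to 197 and 52 to 87 in ku80, and 146 to 182 and 47 to 66 in both. The sor4 median lay between -0.69 and -0.57 and the ku80 median between -0.70 and -0.54. The median of sor4 over ku80 was 0.087 to 0.14 in darkness and 0.0036 to 0.092 in light. Levels were 1.02 to 1.26 in light and 2.99 to 3.06 CPM per kb in darkness. Strain calls were 0 to 1 lower in darkness, 0 to 4 lower and 0 to 1 higher in light, and 0 to 3 for the difference.

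Same-numbered libraries did not deviate together, so the numbers were not treated as pairs. With a replicate block, 231 rows were lower and 99 higher in light in sor4, 182 and 70 in ku80 and 169 and 58 in both, and the strain medians were 0.074 in darkness and 0.072 in light. Among the values of single rows, 1667 kept their direction and call, 80 lost a call, 1 gained a call and 8 reversed. The reversals came from left-out libraries and concerned rows that were not called: log2 fold changes in ku80 spanned -0.12 to 0.69 for TrA0027W, -0.058 to 0.20 for TrA2106W, -0.33 to 0.085 for TrB1932W, -4.90 to 0.18 for TrC1552C and -0.32 to 0.64 for TrE1264W, and -0.016 to 0.091 in sor4 for TrB1932W. Depth limits rows near 0: in light, 117 terminal rows had no count.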
